A study of Mus musculus with 8 samples.

Results

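The genes described here are 8 genes tied to bone metastasis and to osteomimicry, the expression of bone-cell genes by tumour cells: Pthlh, Tnfsf11, Tnfrsf11b, Alpl, Ibsp, Spp1, Sparc and Runx2. The rule that picked them uses their names and no measured value, though they were chosen with earlier results of these data known. They were taken from the 27179 genes of the count matrix. All 8 were listed there. A filter on low counts left 13927 genes for testing, with 7 of the 8 among them, and Tnfsf11 did not pass it.

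RNA-seq was performed on 4 mouse mammary tumour cell lines in duplicate biological samples, so 8 libraries in all, and the lines were 67NR, 66cl4, 4T1 and 4T1.2. 4T1 is a metastatic mammary carcinoma line of BALB/c origin, 4T1.2 is a clone derived from it that spreads to bone, and 66cl4 (written 66c14 in the sample labels) and 67NR are related lines of lower metastatic potential in the study. The lines were profiled as tumour cells in culture, with no treatment and no host tissue named in the labels, and the study used the comparison to look for tumour-cell factors that act on the bone marrow. Each line is 1 cell population, so the replicate error covers repeat samples of a line and not other tumours of its kind.

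Parathyroid hormone-related protein, encoded by Pthlh, is released by tumour cells in bone and acts on osteoblasts, which then make more RANKL (Tnfsf11) and less osteoprotegerin (Tnfrsf11b), its soluble decoy receptor. RANKL drives osteoclast formation, and the bone that osteoclasts dissolve releases growth factors that feed the tumour. Tumour cells can also make the proteins of mineralising bone themselves: the acidic, integrin-binding glycoproteins osteopontin (Spp1) and bone sialoprotein (Ibsp), the collagen-binding protein osteonectin (Sparc) and tissue-nonspecific alkaline phosphatase (Alpl), several of them under the osteoblast transcription factor Runx2.

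Library totals ran from 37159840 to 66269681 counts. Levels are in CPM, a gene's counts relative to the tested genes' total in its library, scaled by trimmed mean of M-values (TMM) factors. Where genes are set side by side, RPKM is given, which also divides by the length of the exons. Differences were tested with edgeR's quasi-likelihood F-test on all 8 libraries, with Benjamini-Hochberg adjustment over the 13927 genes and a threshold of 0.05. Log2 fold changes are given with a standard error (SE) or 95% interval for the 8 genes. This SE was derived from the test, as the size of the log2 fold change divided by the square root of the F statistic. The 95% interval was built from it. In bulk libraries, fewer cells expressing a gene and less RNA per cell cannot be told apart.

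The 250 bases before the annotated start are shown for 4 of the 7 genes with a promoter entry. Ibsp and Spp1 are neighbours on chromosome 5 yet were highest in different lines. Pthlh and Alpl were both higher in 4T1 than in 4T1.2, as were Ibsp and Tnfrsf11b, the latter without an entry. The sequences are from RefSeq on GRCm38.p6, read 5' to 3' on the strand of the gene, and capitals mark the Runx core sequence ACCACA, searched on both strands. The Spp1 window is chr5:104434861-104435110 (plus strand), that of Ibsp is chr5:104299037-104299286 (plus strand), that of Pthlh is chr6:147264014-147264263 (minus strand) and that of Alpl is chr4:137796385-137796634 (minus strand).

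Spp1: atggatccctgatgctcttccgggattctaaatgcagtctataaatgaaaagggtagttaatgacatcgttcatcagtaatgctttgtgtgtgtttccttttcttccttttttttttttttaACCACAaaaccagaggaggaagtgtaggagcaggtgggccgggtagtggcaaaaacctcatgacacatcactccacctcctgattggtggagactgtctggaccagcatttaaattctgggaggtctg
Ibsp: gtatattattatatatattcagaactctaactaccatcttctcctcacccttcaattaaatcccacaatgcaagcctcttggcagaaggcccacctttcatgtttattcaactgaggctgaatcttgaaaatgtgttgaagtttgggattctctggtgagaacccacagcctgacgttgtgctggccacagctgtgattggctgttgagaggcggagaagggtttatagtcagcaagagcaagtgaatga
Pthlh: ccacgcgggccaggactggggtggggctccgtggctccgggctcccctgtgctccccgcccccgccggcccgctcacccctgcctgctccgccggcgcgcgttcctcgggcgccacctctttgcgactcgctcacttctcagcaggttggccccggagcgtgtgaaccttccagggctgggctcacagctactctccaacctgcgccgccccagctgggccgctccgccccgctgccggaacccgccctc
Alpl: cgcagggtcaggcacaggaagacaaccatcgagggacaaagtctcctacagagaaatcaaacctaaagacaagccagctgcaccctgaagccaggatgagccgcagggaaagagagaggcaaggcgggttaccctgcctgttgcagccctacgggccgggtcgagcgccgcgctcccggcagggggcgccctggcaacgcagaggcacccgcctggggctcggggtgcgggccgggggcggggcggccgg

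The Spp1 window held 1 match to the Runx core, 128 to 123 bases before the start. Of the 7 genes with an entry, Runx2 was the only other one with a match, 80 to 75 bases before the start used in its promoter entry. That entry covers chr17:44814628-44814877 on the minus strand and belongs to a start inside the gene span given below, so this match lies within the span. Of all 27025 promoter windows of this length, 3830 (14.2%) held the same letters, so 2 of 7 is a small count to set beside that share. The windows of Pthlh and Alpl held 26 and 20 CpG dinucleotides and those of Spp1 and Ibsp held 3 and 2, against a median of 6 over all promoters. Tnfrsf11b was not in the promoter table.

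The comparison of 4T1.2 with its parental line 4T1 asks what differs between the bone-spreading clone and the population it came from. Tnfrsf11b, Alpl, Pthlh and Ibsp were all lower in 4T1.2, by 3.10-fold to 8.91-fold, while for Spp1, Sparc and Runx2 no difference passed the test. Thus 4 of the 7 tested genes were called, all of them lower. Across all tested genes 19.3% were called in this comparison, and 9.92% were called lower. The median log2 fold change of all tested genes was 0.00, and the 4 genes ranked 95, 166, 415 and 478 from the lowest among the 13927. All 4 were at low levels in every line, with at most 219 counts in a library.

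**Figure D1:**
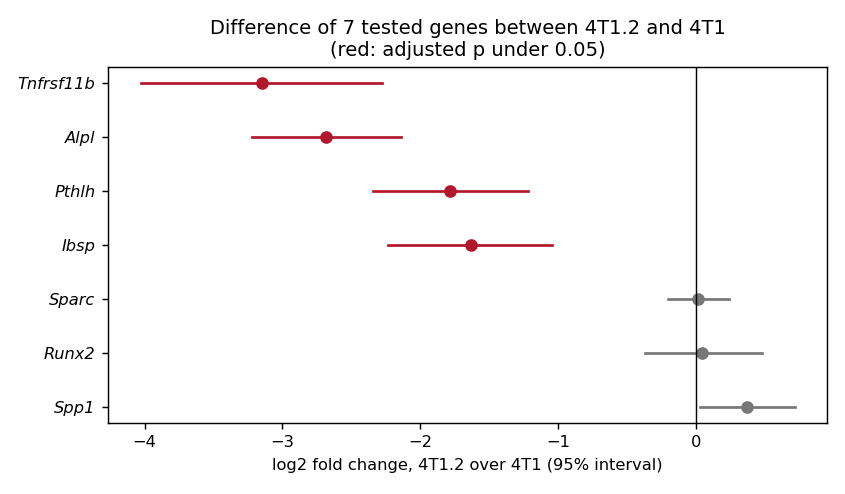
Log2 fold change of the 7 tested genes between 4T1.2 and 4T1 (x axis) with its 95% interval (bars), red where the adjusted p was under 0.05. Tnfrsf11b, Alpl, Pthlh and Ibsp lie wholly below 0, from -3.15 to -1.63, and the intervals of Sparc and Runx2 span 0. The interval of Spp1 lies above 0 (0.03 to 0.72), but its difference was not called after adjustment.

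Pthlh (chr6:147252109-147264013) was the signalling ligand of the group. It was counted 62 and 68 times in the 4T1.2 libraries, 219 and 200 times in 4T1, 0 and 2 times in 66cl4, and not at all in 67NR. These counts correspond to 1.09 and 1.2 CPM in 4T1.2 and 3.59 and 4.31 CPM in 4T1. Both 4T1 libraries lay above both 4T1.2 libraries, and both of those lay above every library of the other lines. The level in 4T1.2 was 3.43-fold lower than in 4T1 (log2 fold change -1.78, SE 0.24, 95% interval -2.34 to -1.22, adjusted p = 0.00141). Against the 2 counts of 66cl4, the ratio was 51.6 for 4T1.2 (exact 95% counting interval 14 to 431) and 176 for 4T1 (48.3 to 1.46e+03). Against 67NR, taken at a floor of 3 counts in each library, the 4T1.2 level of Pthlh was at least 17.6-fold higher and the 4T1 level at least 60.6-fold higher. Pthlh was not called between 66cl4 and 67NR (adjusted p = 0.202), where both lines were under that floor.

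Tnfsf11 (chr14:78277446-78308043), which encodes RANKL, was near the limit of detection. There was 1 count in each 4T1.2 library, 1 and 2 counts in 4T1 and 0 in all 4 libraries of 66cl4 and 67NR. No library exceeded the floor of 3 counts, which stands for 0.0486 to 0.0818 CPM here, so no fold is given. A count of 0 limits the level to this floor and does not show that the gene is silent.

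Tnfrsf11b (chr15:54250619-54278484), which encodes the decoy receptor osteoprotegerin, was counted 7 and 8 times in 4T1.2, 76 and 53 times in 4T1, 5 and 12 times in 66cl4 and 0 times in both 67NR libraries. The 4T1 libraries, at 1.24 and 1.14 CPM, stood apart from all others, and those of 4T1.2 (0.123 and 0.141 CPM) fell between the 66cl4 libraries (0.110 and 0.268 CPM). Tnfrsf11b was 8.91-fold lower in 4T1.2 than in 4T1 (log2 fold change -3.15, SE 0.38, 95% interval -4.03 to -2.28, adjusted p = 0.000733), from 15 counts in 4T1.2 against 129. Between 4T1.2 and 66cl4 the log2 difference was -0.51 with a 95% interval of -1.72 to 0.71 and was not called (adjusted p = 0.42), and it ran from -1.01 without the first 66cl4 library to 0.25 without the second. The 4T1 level was 6.27-fold above that of 66cl4 (log2 fold change 2.65, SE 0.38, adjusted p = 0.000235). Against 67NR at the floor of 3 counts in each library, the level was at least 2.03-fold higher for 4T1.2, at least 18.3-fold higher for 4T1 and at least 2.9-fold higher for 66cl4. Without the second 66cl4 library, the log2 difference between 4T1 and 66cl4 was 3.41. Pthlh and Tnfrsf11b were thus both lower in the bone-spreading clone than in its parent, and the receptor of RANKL, Tnfrsf11a, had 7 and 5 counts in 4T1.2, 1 and 0 in 4T1 and 0 elsewhere and was not tested.

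Alpl (chr4:137741731-137796384), the phosphatase that frees phosphate for mineral, was counted 34 and 32 times in 4T1.2, 216 and 184 times in 4T1, 20 and 29 times in 66cl4 and 25 and 29 times in 67NR. In CPM the 4T1 libraries were at 3.54 and 3.97 and the other 6 libraries between 0.442 and 0.682. Both 4T1 libraries thus stood apart, and the other 3 lines overlapped. It was 6.42-fold lower in 4T1.2 than in 4T1 (log2 fold change -2.68, SE 0.24, 95% interval -3.22 to -2.14, adjusted p = 8.6e-05), and 4T1 was 6.86-fold above 66cl4 (adjusted p = 5.78e-06) and 6.69-fold above 67NR (adjusted p = 6.3e-06). No difference was called among 4T1.2, 66cl4 and 67NR, with log2 differences of 0.10 (95% interval -0.58 to 0.77), 0.06 (-0.60 to 0.73) and -0.04 (-0.73 to 0.66).

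Ibsp (chr5:104299287-104311472), which encodes the mineral-nucleating bone sialoprotein, was counted 33 and 57 times in 4T1.2, 148 and 116 times in 4T1, 8 times in each 66cl4 library and 0 and 1 times in 67NR. As CPM these were 0.581 and 1.01 in 4T1.2, 2.42 and 2.50 in 4T1, and 0.177 and 0.178 in 66cl4. The lines did not overlap, and their order was 4T1, 4T1.2, 66cl4 and 67NR from high to low. Ibsp was 3.10-fold lower in 4T1.2 than in 4T1 (log2 fold change -1.63, SE 0.27, 95% interval -2.23 to -1.04, adjusted p = 0.00245). The 4T1.2 level exceeded that of 66cl4 by 4.42-fold (log2 fold change 2.14, SE 0.40, adjusted p = 0.00092) and the 4T1 level did so by 13.7-fold (log2 fold change 3.77, SE 0.35, adjusted p = 7.34e-06). Against the single count in 67NR the ratio was 78 for 4T1.2 (exact 95% counting interval 13.6 to 3.12e+03), 242 for 4T1 (43 to 9.58e+03) and 17.5 for 66cl4 (2.71 to 733).

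**Figure D2:**
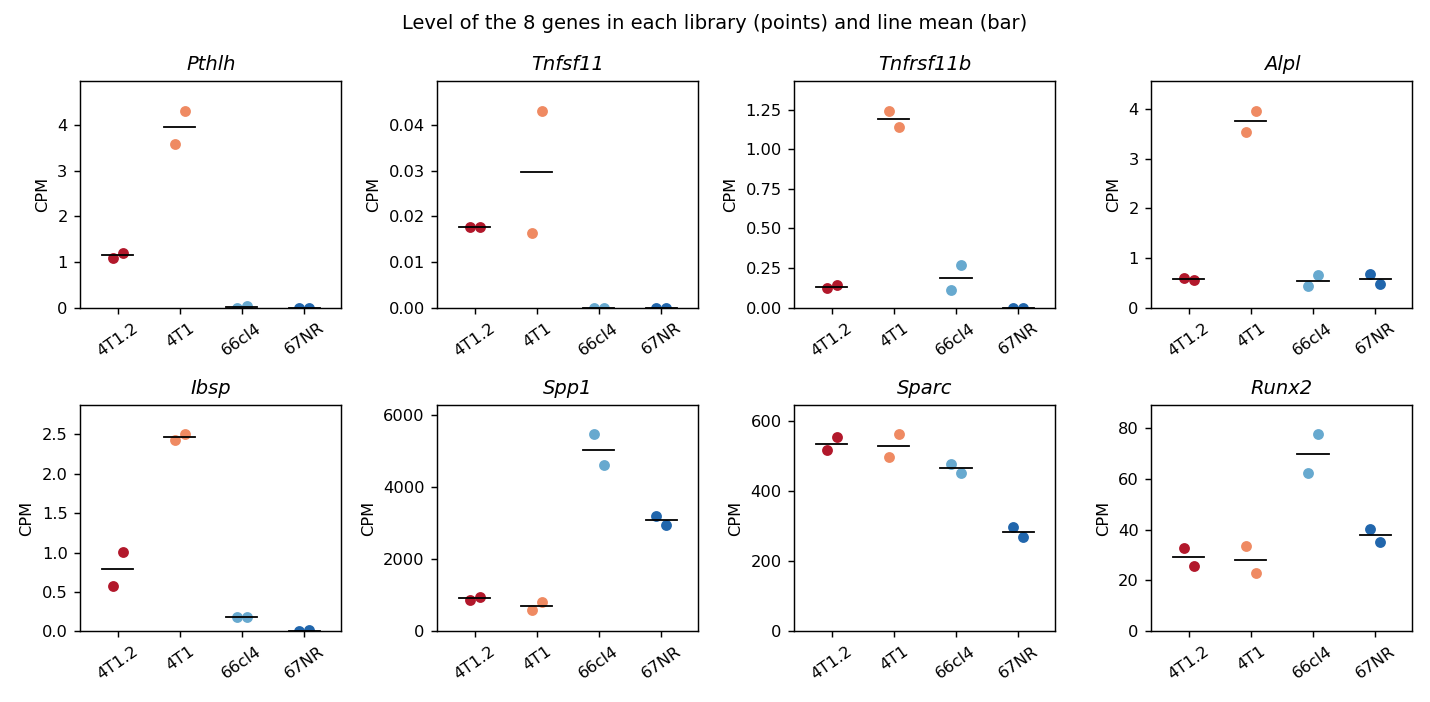
Level in CPM (y axis, linear, scaled per gene) of the 8 genes in each library (points) and the mean of the 2 replicates of each line (bars). Pthlh, Tnfrsf11b, Alpl and Ibsp are highest in 4T1 at 1.19 to 3.95 CPM, Spp1 and Runx2 are highest in 66cl4, and Tnfsf11 never passes 3 counts.

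Spp1 (chr5:104435111-104441053), which encodes osteopontin, a ligand of integrins and of Cd44, was the most abundant of the 8 by RPKM in each line. Its level was 872 and 949 CPM in the 4T1.2 libraries, 599 and 806 CPM in 4T1, 5465 and 4620 CPM in 66cl4 and 3197 and 2956 CPM in 67NR. The lines did not overlap, and all libraries of 4T1.2 and 4T1 lay below all of 66cl4 and 67NR. Per length of exon, its level was 3041 ± 360 RPKM in 66cl4 (SD, n = 2) and 424 ± 88.0 RPKM in 4T1 (SD, n = 2), which ranked 11 and 118 among the tested genes of those lines. Spp1 was 5.54-fold lower in 4T1.2 than in 66cl4 (log2 fold change -2.47, SE 0.16, adjusted p = 5.31e-07) and 3.38-fold lower than in 67NR (-1.76, SE 0.16, adjusted p = 5.63e-06). It was 7.18-fold lower in 4T1 than in 66cl4 (-2.84, SE 0.16, adjusted p = 2e-07) and 4.38-fold lower than in 67NR (-2.13, SE 0.16, adjusted p = 1.49e-06). By RPKM, Spp1 lay above at least 99.2% of the tested genes in every line.

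Between 4T1.2 and 4T1 the 2 Spp1 libraries of each line did not overlap, but the log2 difference of 0.37 (SE 0.15, 95% interval 0.03 to 0.72) did not pass the test after adjustment (adjusted p = 0.127). Without the second 4T1 library it was 0.60 and was called (adjusted p = 0.0192), and without the first it was 0.18. Spp1 was higher in 66cl4 than in 67NR by 1.64-fold (log2 fold change 0.71, SE 0.15, adjusted p = 0.00432). The Spp1 transcript model shares 8.55% of its 75-base stretches with the overlapping gene model Gm42793, which is not in the count matrix.

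Spp1 and Ibsp lie in the same direction on chromosome 5 with the other genes of their protein family, Dspp, Dmp1 and Mepe. Their starts lie 264 kb (Dspp), 238 kb (Dmp1), 136 kb (Ibsp) and 110 kb (Mepe) before that of Spp1. Dspp had 0 counts in every library and Mepe at most 3, whereas Dmp1, which encodes a matrix protein of osteocytes, was measured in all lines. Dmp1 was counted 683 and 503 times in 4T1.2, 1623 and 1137 times in 4T1, 205 and 232 times in 66cl4 and 45 and 83 times in 67NR, or 10.4 ± 2.23, 25.5 ± 1.45, 4.85 ± 0.458 and 1.29 ± 0.083 CPM (SD, n = 2) in the same order. It therefore ordered the lines as Ibsp did, whereas Spp1 was lowest in 4T1 and highest in 66cl4. Its 4T1.2 level was below that of 4T1 (log2 fold change -1.29, SE 0.15, adjusted p = 0.000423). Over the 8 libraries, which come from 4 lines, Pearson's r of log2 CPM between Spp1 and Ibsp was -0.81, given as a description.

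**Figure D3:**
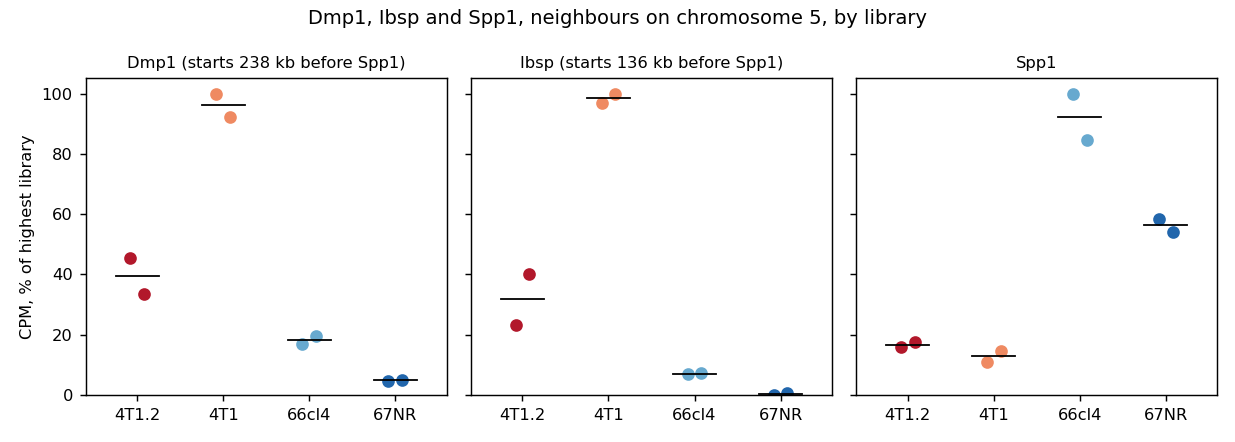
Level of Dmp1, Ibsp and Spp1 in each library (points, bar at the line mean), as CPM in percent of the highest library of that gene. Dmp1 and Ibsp peak in 4T1 and are at 5.06% or less in 67NR, while Spp1 peaks in 66cl4 and is at 11% to 17.4% in 4T1 and 4T1.2.

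Sparc (chr11:55394159-55420080), the collagen-binding matricellular protein osteonectin, was high in all lines. Its level was 519 and 555 CPM in the 4T1.2 libraries, 498 and 563 CPM in 4T1, 480 and 452 CPM in 66cl4 and 298 and 270 CPM in 67NR. The 4T1.2 and 4T1 libraries overlapped, the 66cl4 libraries lay just below them, and the 67NR libraries lay below all others. The log2 difference between 4T1.2 and 4T1 was 0.02 (SE 0.10, 95% interval -0.20 to 0.24, adjusted p = 0.94). Sparc was higher than in 67NR by 1.89-fold in 4T1.2 (log2 fold change 0.92, SE 0.10, adjusted p = 2.33e-05), 1.87-fold in 4T1 (0.90, SE 0.10, adjusted p = 2.7e-05) and 1.64-fold in 66cl4 (0.71, SE 0.10, adjusted p = 0.000337). The differences of 0.21 between 4T1.2 and 66cl4 (95% interval -0.02 to 0.43) and of 0.19 between 4T1 and 66cl4 (-0.03 to 0.41) were not called. Each was called when 1 of the 4T1 libraries was left out, at 0.22 (adjusted p = 0.0483) without the second and at 0.27 (adjusted p = 0.0396) without the first.

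Runx2 (chr17:44495987-44814797), the transcription factor that commits cells to the osteoblast lineage, reached 32.9 and 25.7 CPM in the 4T1.2 libraries, 33.4 and 22.9 CPM in 4T1, 62.4 and 77.5 CPM in 66cl4 and 40.3 and 35.3 CPM in 67NR. The 66cl4 libraries were highest, and those of 4T1.2 and 4T1 overlapped and lay below 67NR. The log2 difference between 4T1.2 and 4T1 was 0.05 (SE 0.19, 95% interval -0.37 to 0.48, adjusted p = 0.896). Runx2 was lower than in 66cl4 by 2.39-fold in 4T1.2 (log2 fold change -1.26, SE 0.19, adjusted p = 0.000237) and by 2.48-fold in 4T1 (-1.31, SE 0.19, adjusted p = 0.000178), and it was 1.85-fold higher in 66cl4 than in 67NR (0.89, SE 0.19, adjusted p = 0.004). Against 67NR, neither 4T1.2 (-0.37, 95% interval -0.79 to 0.06, adjusted p = 0.112) nor 4T1 (-0.42, 95% interval -0.85 to 0.01, adjusted p = 0.075) was called. Both were called when the first 4T1 library was left out, at -0.37 (adjusted p = 0.0308) and -0.72 (adjusted p = 0.00325), and the former also without the second (adjusted p = 0.0277). The Runx2 transcripts share 5.13% of their 75-base stretches with other gene models, mainly the antisense Runx2os1, which is not in the count matrix. Per length of exon in 4T1.2, Spp1 was at 549 ± 33.0 RPKM, Sparc at 233.5 ± 11 RPKM, Runx2 at 4.22 ± 0.736 RPKM, Pthlh at 0.758 ± 0.0504 RPKM, Ibsp at 0.406 ± 0.153 RPKM, Alpl at 0.231 ± 0.00962 RPKM and Tnfrsf11b at 0.0469 ± 0.00448 RPKM (SD, n = 2).

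Across the other comparisons, all of which share lines with one another, the share of all genes called was high. Between 4T1.2 and 66cl4, 68.8% of all genes were called and 4 of the 7 (Pthlh and Ibsp higher, Spp1 and Runx2 lower). Between 4T1.2 and 67NR, 67.9% of all genes were called and 5 of the 7, with Spp1 alone lower. Between 4T1 and 66cl4 the values were 70.1% and 6 of 7, between 4T1 and 67NR 68.2% and 6 of 7, and between 66cl4 and 67NR 44.7% and 5 of 7, the last all higher in 66cl4. For the mean of 4T1.2 and 4T1 against the mean of 66cl4 and 67NR, 76.7% of genes were called and all 7 of the tested genes, with Pthlh, Tnfrsf11b, Ibsp, Sparc and Alpl higher and Spp1 and Runx2 lower. For Alpl and Tnfrsf11b this mean stands for libraries that overlapped. Some difference among the 4 lines was called for 84.8% of genes and for 7 of 7. For 4T1.2 against 66cl4 or 67NR the counts are near the share of all genes. In the other comparisons they lie above it, but 7 genes give small counts to set beside a share, and an excess was not tested.

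For each tested gene, the 3 other genes with the highest Pearson correlation of log2 CPM over the 8 libraries were looked up. With 4 lines of 2 replicates, these values describe line patterns. Pthlh was followed by Rgs22 (r = 0.998) and Rgs11 (r = 0.996), regulators of G-protein signalling, and by Ctf1 (r = 0.996), a cytokine. The mean level of Rgs11 was 22.7 CPM in 4T1, 7.02 CPM in 4T1.2 and at most 0.0335 CPM in the other lines. Tnfrsf11b was closest to Txlnb (r = 0.987), Nfkbie (r = 0.984), an inhibitor of NF-kappaB, and Nupr1 (r = 0.982). Spp1 was closest to Zfp248 (r = 0.999), A530032D15Rik (r = 0.999) and the interferon-inducible GTPase Ifi47 (r = 0.998), which was at 124 CPM in 66cl4, 68.1 in 67NR, 9.66 in 4T1.2 and 7.28 in 4T1. Ibsp was closest to Tm7sf2 (r = 0.992), Rgs20 (r = 0.992) and Epb41l4b (r = 0.991), and Sparc to Cyb5d2 (r = 0.995), Acsl3 (r = 0.993) and Dapk2 (r = 0.991). Alpl was closest to Serpina3f (r = 0.985), Tnfsf15 (r = 0.980) and Fry (r = 0.979), and Runx2 to Khnyn (r = 0.993), Dip2b (r = 0.991) and Tnks1bp1 (r = 0.990). A high r does not mean a high level or a change of like size. Serpina3f and Tnfsf15 averaged at most 0.263 and 0.371 CPM in any line. Line means ran only from 9.83 to 13.5 CPM for Zfp248 and from 8.15 to 21.2 CPM for Ctf1.

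The partners of these genes were read from 7 lists with 107 genes, of which 81 were tested. The lists too were chosen with earlier results of these data known. Between 4T1.2 and 4T1, 24 of the 81 (29.6%) were called, 15 higher and 9 lower in 4T1.2, beside 19.3% of all genes. Of these 24, 11 were called under every other setting tried and 13 were not called under at least 1. Genes with 3 counts or fewer in all 4 libraries of the pair, or with none in 1 line, carry no fold and were left out of the medians below.

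Among the partners of RANKL and osteoprotegerin, 4 of 10 tested genes were called, 1 higher and 3 lower, with a median log2 fold change of -0.01. Csf1, the growth factor that osteoclast precursors need beside RANKL, rose from 143 ± 19.3 CPM in 4T1 to 240 ± 37.5 CPM in 4T1.2 (SD, n = 2; log2 fold change 0.74, SE 0.14, adjusted p = 0.00513), and was at 904 and 942 CPM on average in 66cl4 and 67NR. Tnfsf10 (TRAIL, a death ligand that osteoprotegerin also binds) fell by 0.77 on the log2 scale, its receptor Tnfrsf10b by 0.51 and Il34, the second ligand of the Csf1 receptor, by 0.38, and each of the 3 lost its call when 1 library was left out (highest adjusted p = 0.0547, 0.163 and 0.134, in that order, the first 2 without the second 4T1.2 library and the last without the first). Sema3a, a repressor of osteoclasts, had the widest range, at under 1 CPM in 4T1.2 and 4T1 (0.978 and 0.683) and at 426 and 423 CPM in 66cl4 and 67NR. Il11, a cytokine that induces osteoclasts, averaged 3.71 CPM (4T1.2), 3.82 CPM (4T1), 0.934 CPM (66cl4) and 0.676 CPM (67NR). Lgr4, also in this list, averaged 20.7 CPM (4T1.2), 15.4 CPM (4T1), 25.3 CPM (66cl4) and 8.27 CPM (67NR). Its log2 difference between 4T1.2 and 4T1 was 0.42 (SE 0.13) and was not called (adjusted p = 0.0525). It was called by DESeq2 (adjusted p = 0.0266) and under some other settings, and ran from 0.26 to 0.56 when 1 library was left out.

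Of the genes around PTHrP, 3 of 10 tested were called and all 3 were higher in 4T1.2, with a median of 0.17. They belong to the TGF-beta pathway, which is known to raise Pthlh in tumour cells, and were Tgfbr1 (0.60, SE 0.08, adjusted p = 0.00105), Smad3 (0.56, SE 0.10, adjusted p = 0.00379) and the ligand Tgfb3 (0.37, SE 0.09, adjusted p = 0.0224). The other TGF-beta ligands had values below 0 and were not called, Tgfb1 at -0.37 (SE 0.12, adjusted p = 0.0648) and Tgfb2 at -0.25 (SE 0.10, adjusted p = 0.114). Tgfb1 was called lower by DESeq2 (adjusted p = 0.0379), with thinned libraries (-0.38, adjusted p = 0.0485) and without the second 4T1 library (-0.49, adjusted p = 0.0208). Pthlh itself was lower in the same comparison. The call of Tgfb3 was lost when either 4T1.2 library or the first 4T1 library was left out (highest adjusted p = 0.156). Gli2, a transcription factor of the same axis, had 177 and 296 counts in 67NR and at most 3 in any library of the other lines. Pth1r, the PTHrP receptor, had 30 and 40 counts in 4T1.2 and 23 and 24 counts in 4T1 and was not called (adjusted p = 0.337).

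Of the relatives of Spp1 and Ibsp and the receptors that bind them, 3 of 8 tested genes were called, with a median of -0.04. Itga8, an integrin chain that pairs with Itgb1 and binds osteopontin, had 9928 and 9858 counts in 4T1.2, 3484 and 2747 in 4T1, 3882 and 2871 in 66cl4, but 46 and 52 in 67NR. It was higher in 4T1.2 than in 4T1 (log2 fold change 1.58, SE 0.15, adjusted p = 0.0001), while Dmp1 and Itga5 (-0.35, adjusted p = 0.0271) were lower. The call of Itga5 was lost without the second 4T1.2 library (adjusted p = 0.18), the first 4T1 library or either 67NR library. Itgb3, a chain of the vitronectin receptor that binds osteopontin and bone sialoprotein, had 2189 and 1891 counts in 4T1.2, 1635 and 1100 in 4T1 and at most 4 in 66cl4 and 67NR. Its log2 difference between 4T1.2 and 4T1 was 0.51 (SE 0.18, adjusted p = 0.0738), and it was called under 5 other settings: without a filter on low counts (adjusted p = 0.0459), from the libraries of this pair alone (0.0458), without the first or the second 66cl4 library (0.0358 and 0.0359) and by DESeq2 (0.00609). For Cd44 the mean levels were 287 CPM (4T1.2) and 282 CPM (4T1), with a log2 difference of 0.02 (adjusted p = 0.886).

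Of the osteoblast transcription factors and Runx partners, 2 of 13 tested genes were called, Sox9 (0.68, adjusted p = 0.0109) and Snai1 (0.54, adjusted p = 0.0479), both higher in 4T1.2, with a median of 0.12. Both calls were lost when the first 4T1.2 library was left out (adjusted p = 0.0898 and 0.276), and that of Snai1 under 10 of 19 settings. Cbfb, the partner subunit of Runx2, was between 149 and 167 CPM on average in all lines. The osteoblast factor Sp7 had at most 7 counts in a library, and Dlx5 had 0. Several factors split the lines: Snai1 had 562 to 1250 counts in 4T1.2 and 4T1 and at most 2 in the other lines, whereas Snai2 (2689 to 4808 counts), Twist2 (1002 to 1764), Runx3 (303 to 593) and Msx2 (245 to 413) were counted in 66cl4 and 67NR and had at most 3 counts in 4T1.2 and 4T1.

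Of the bone matrix and mineralisation genes, 3 of 19 tested were called, with a median of -0.02. The phosphate transporter Slc20a1 (0.66, SE 0.10, adjusted p = 0.00134) and the matricellular protein Thbs1 (1.02, SE 0.12, adjusted p = 0.000381) were higher in 4T1.2, and the small proteoglycan Dcn, with 7 and 9 counts in 4T1.2 and 24 and 26 in 4T1, was lower (-1.72, adjusted p = 0.0257). Dcn lost its call when either 4T1.2 library or the second 4T1 library was left out (highest adjusted p = 0.145). The proteoglycans Ogn (312 to 387 CPM on average) and Omd (18.7 to 19.2 CPM) were abundant in 67NR and 66cl4 and at 4.86 to 6.23 CPM and 0.167 to 0.279 CPM in 4T1.2 and 4T1. Alpl and Ibsp were highest in 4T1, while these proteoglycans were highest in 66cl4 and 67NR. Of the family of Sparc, none of 3 tested genes was called by edgeR, limma or DESeq2, 1 had an unadjusted p under 0.05 in edgeR, and the median was 0.30. Smoc1 was called without the second 4T1 library (0.77, adjusted p = 0.0194). Fstl1 (99.6 and 19.3 CPM) and Smoc1 (53.7 and 50.2 CPM) were expressed in 66cl4 and 67NR and were at 0.238 to 1.51 CPM in 4T1.2 and 4T1.

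Of other factors linked to bone metastasis, 9 of 18 tested genes were called, 6 higher and 3 lower in 4T1.2, with a median of 0.31. The higher ones were Inhba, the activin A chain (1.45, SE 0.23, adjusted p = 0.0024), the kinase Src (0.74, SE 0.11, adjusted p = 0.00182), Bmp7 (0.69, SE 0.13, adjusted p = 0.00535), Ccn1 (0.51, adjusted p = 0.0231), Mmp14 (0.32, adjusted p = 0.0369) and Ptgs2 (0.31, adjusted p = 0.0477). The lower ones were the Notch ligand Jag1 (-0.83, adjusted p = 0.00932), the collagenase Mmp13 (-0.70, adjusted p = 0.00679) and the adhesion molecule Vcam1 (-0.55, SE 0.08, adjusted p = 0.00172). Jag1 and Mmp13 lost their call without the second 4T1.2 library (adjusted p = 0.0826 and 0.0618), and Ccn1, Mmp14 and Ptgs2 without the first (adjusted p = 0.18, 0.249 and 0.264) and under some other settings. Mmp9 was at 209 ± 8.82 CPM in 4T1.2 and 178 ± 9.44 CPM in 4T1 (SD, n = 2) and at 0.343 and 2.28 CPM in 66cl4 and 67NR, and its difference between 4T1.2 and 4T1 was not called (0.24, adjusted p = 0.203).

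**Figure D4:**
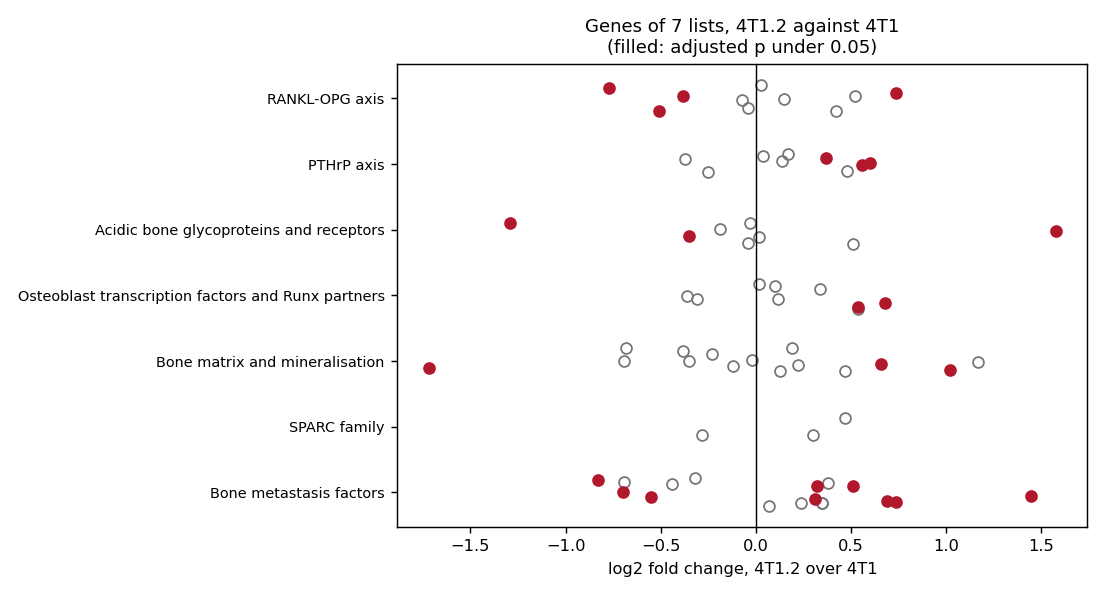
Log2 fold change between 4T1.2 and 4T1 (x axis) of 71 genes in 7 lists (rows), filled where the adjusted p was under 0.05. The 24 filled points lie on both sides of 0, 15 above and 9 below, from -1.72 (Dcn) to 1.58 (Itga8).

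Markers of cell types were read beside these differences. All 4 epithelial markers were lower in 4T1.2 than in 4T1, Epcam by a log2 fold change of -1.61 and Cdh1 by -1.76 (adjusted p = 0.000163 and 4.41e-05), Krt8 by -0.52 and Krt18 by -0.81 (adjusted p = 0.0251 and 0.00647), and their summed level was 1470 to 1730 CPM in 4T1.2 and 2180 to 2890 CPM in 4T1. They thus moved in the direction of Pthlh, Tnfrsf11b, Alpl and Ibsp, and their part in that result was not tested. Of the 3 mesenchymal markers, 0 were called between 4T1.2 and 4T1. The log2 differences were -0.10 for Vim (adjusted p = 0.788) and 0.22 for S100a4 (adjusted p = 0.33), and Cdh2 had at most 1 count in a library of these lines. Epcam had at most 1 count in a library of 66cl4 or 67NR, although Krt8 was counted at least 16981 times in each. The endothelial markers Tie1 (-3.21, adjusted p = 4.96e-05) and Cdh5 (-2.01, adjusted p = 0.00172) were also lower in 4T1.2, with a summed level over 3 markers of 1.51 to 1.71 CPM against 9.42 to 9.69 CPM in 4T1, while the third, Pecam1, had 11 to 18 counts and was not called. Their part was not tested either. The 5 leucocyte markers summed to at most 0.164 CPM in 4T1.2 and 4T1. Of the 5 osteoblast and osteocyte markers, Sp7, Sost, Bglap and Bglap2 had at most 15 counts in a 4T1.2 or 4T1 library, and Dmp1 carried nearly all of the sum, 9.24 to 12.2 CPM in 4T1.2 and 24.6 to 26.7 CPM in 4T1. Of the 6 osteoclast markers, Acp5 alone was above 4 counts in the 4T1.2 and 4T1 libraries, at 73.0 ± 3.73 and 91.6 ± 12.5 CPM (SD, n = 2), and it was not called between them (adjusted p = 0.187).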

How the data were processed

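RNA-seq was performed on 4T1.2, 4T1, 66cl4 and 67NR cells with 2 biological replicates of each (TruSeq RNA v2, which does not mark strand). The authors deposited raw counts per Entrez gene, made with featureCounts on mm10 per the labels, together with a gene length that was used here for RPKM. The strand setting of the counting is not given in the sources used here. Totals ran from 37159840 to 66269681 counts.

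Counts were matched to RefSeq genes of GRCm38.p6, and 25275 of 27179 identifiers (93.0%) had an entry. filterByExpr left 15269 genes, and taking out 533 genes with no entry, 695 predicted ones and 114 ribosomal ones left 13927. A mean for each line was fitted in edgeR 4.0.16 (R 4.3.3) with TMM factors, a prior count of 0.125, 4 residual degrees of freedom and a biological coefficient of variation of 9.74%, which follows the study's choice of the quasi-likelihood pipeline. With 2 samples a line, each p-value sets a line difference against the spread between repeat samples. That spread was estimated from all 8 libraries and moderated across genes. Replicates of a line differed by more than sampling noise. Ratios against 1 to 3 counts carry exact 95% intervals, which cover counting error only. Alternatives were limma-voom (limma 3.58.1), the test and the size factors of DESeq2 1.42.0, robust estimation, edgeR's newer fit, other filters and prior counts, thinned libraries, a replicate block, the 4T1.2 and 4T1 libraries alone, and each library left out. Figures were drawn with matplotlib 3.10.9.

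The 8 genes and the 7 lists were chosen with earlier results of these data known. Named genes were all 8, every listed gene called between 4T1.2 and 4T1, the 3 genes most correlated with each tested gene, and markers by range. Further ones came from the up to 4 genes of each list with the widest range of line means and a difference called. Of those, no value is given for Bgn, Postn, Itgb1, Ccn3, Fst and Lox. A few others (Tnfrsf11a, Pth1r, Dspp, Mepe, Cbfb, Sp7, Dlx5) were named after their values were seen.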

Additional observations from a re-analysis of the deposited data

How the results depend on the processing

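Over the 7 tested genes and all comparisons of line means, 917 values were recomputed under other settings. 898 kept their direction and side of the threshold, 8 passed it where the reported value did not, and 11 changed sign. All 11 belong to differences that were not called and stayed so, and no called difference lost its call or changed sign. The setting with a prior count of 2 alters only the fold change and leaves the p-values as they were. Its values, which are among those recomputed, could therefore not change their side of the threshold. Leaving out 1 library, Runx2 between 4T1.2 and 4T1 ran from -0.19 to 0.35 and Sparc from -0.07 to 0.11, Tnfrsf11b between 4T1.2 and 66cl4 from -1.01 to 0.25, and Alpl from -0.15 to 0.39 for 4T1.2 against 66cl4, -0.23 to 0.31 for 4T1.2 against 67NR and -0.33 to 0.22 for 66cl4 against 67NR. With thinned libraries, Alpl was at -0.09 for 4T1.2 against 66cl4 and -0.21 for 4T1.2 against 67NR. The 4 differences called between 4T1.2 and 4T1 held under every setting that could test the gene, with log2 fold changes of -1.91 to -1.64 for Pthlh, -3.26 to -2.85 for Tnfrsf11b, -2.96 to -2.60 for Alpl and -2.08 to -1.21 for Ibsp, whose highest adjusted p was 0.0497 with libraries thinned to the smallest total. Against 67NR and 66cl4, fitted values of genes near 0 moved with the prior count, so bounds were given instead.

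Requiring 10 or more counts per library left 4 of the genes (Spp1, Sparc, Alpl and Runx2), and the number called was then 1 for 4T1.2 against 4T1, 2 for 4T1.2 against 66cl4 and against 67NR, 3 for 4T1 against 66cl4, 4T1 against 67NR and 66cl4 against 67NR, and 4 for the mean of both pairs and for any difference, since fewer genes were tested. The number of all genes called between 4T1.2 and 4T1 was 2686, was 1728 from the libraries of these lines alone, and ran from 1373 (without the first 4T1.2 library) to 3108 (without the first 4T1 library) when 1 library was left out. Without the second 4T1.2 library it was 1427. The number of the 8 genes called there was 4 to 5.

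Correlations of replicate deviations between lines were highest, at 0.27, for 4T1.2 with 4T1, and ran from -0.12 to 0.07 for the other pairs of lines. Replicates of the same number in 4T1.2 and 4T1 thus shared some of their deviations. Whether replicate numbers pair the libraries was not tested. With the replicate number as a block, Runx2 was called between 4T1 and 67NR (-0.43, adjusted p = 0.0457), and without a filter on low counts likewise (-0.43, adjusted p = 0.045). No other call of the 8 genes changed with the block. Some of the listed genes were rerun under the same settings, a step added after seeing the data. These were the genes called between 4T1.2 and 4T1 and, in each list, up to 4 others with the widest range of line means. The remaining listed genes were not rerun. Among the rerun genes not called between 4T1.2 and 4T1, the sign changed for 8. Leaving out 1 library, Nfatc1 ran from -0.21 to 0.33, Sparcl1 from -0.13 to 0.63, Fstl1 from -1.02 to 0.20, Cd44 from -0.00 to 0.05, Ptch1 from -0.09 to 0.42, Itgb5 from -0.16 to 0.08, Il11 from -0.09 to 0.00 and Snai2, with at most 3 counts in these libraries, from -1.74 to 3.06. With thinned libraries Il11 was at 0.03 and Nfatc1 at -0.01, and with limma Snai2 was at 0.18. With at most 57 counts of Ibsp and 8 of Tnfrsf11b in a 4T1.2 library, counting error limits their folds.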
